A study of Mus musculus with 48 samples.

Results

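White and brown fat transcripts were followed in whole lungs, as a set of 10 genes (Adipoq, Retn, Lep, Cfd, Plin1, Pck1, Ucp1, Cidea, Cox8b and Elovl3), taken from every probe set whose annotation carried only that symbol. Of the 10 genes, 8 had such a probe set, out of 12393 genes on the array, and Pck1 had a pair of them, called Pck1-a and Pck1-b in the order of their identifiers, which made 9 probe sets. Cfd and Plin1 were not analysed here. The lungs came from 48 male C57BL/6 mice, with 1 Affymetrix array per animal and 8 animals in each of 6 groups. Regular weight (RW) animals had food with about 5 kcal% fat. Diet-induced obese (DIO) animals were switched at 6 weeks of age to food with 60 kcal% fat, 9 weeks before exposure. Animals were bought at 13 weeks and were 15 weeks old when nose-only exposure began, either to filtered air (SC) or to the smoke of cigarettes, mainstream (MS) in some groups and sidestream (SS) in others, 5 hours a day on 8 days within 2 weeks, and tissue was taken on the next day. An array is named here by diet, exposure and animal, as in RW-SS-6. Obesity came from the diet alone, with no altered gene, and the deposited text on the animals also speaks of an LPS study lasting 4 days, which none of the group names mention. The comparisons ask how diet and smoke move with fat transcripts in a tissue that is not fat.

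White fat stores triglyceride and secretes hormones such as adiponectin and leptin, and the leptin gene is known to rise as fat stores grow. Brown fat burns fuel for heat through the uncoupling protein of its mitochondria. Lung parenchyma has few adipocytes, but fat lies around the hilum, along the mediastinum and beside the thymus, and a whole lung sample can include some of it. In such bulk samples, fewer cells of a type and less RNA per cell cannot be told apart.

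Values are log2 signals from RMA, a method that corrects background, quantile normalizes arrays and combines probes into probe set values. The signal of a probe set also depends on its probes, so values are compared between arrays and never between genes. A difference is a log2 difference ± its standard error from a limma fit of group means over all arrays. A probe set was called at a Benjamini-Hochberg adjusted p below 0.05 over all 22626 probe sets tested. Array medians lay between 7.82 and 7.93. The surfactant gene Sftpc, which marks alveolar type 2 cells, lay between 14.97 and 15.13 on 45 of the arrays and at 14.97 to 15.05 on the other 3, so the samples carried the labelled tissue.

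Members differed in what they followed, and the bases before the start of 4 of them are shown for reference. Adipoq is the transcript that others tracked, Lep is the one called between diets in air, Pck1 followed Adipoq, and Ucp1 was high on 3 arrays alone. The sequences are the 150 bases upstream of the RefSeq start on assembly GRCm38.p6, each on the plus strand, at chr16:23146386-23146535, chr6:29060071-29060220, chr2:173152923-173153072 and chr8:83290198-83290347. Capitals mark matches to a searched motif.
Adipoq: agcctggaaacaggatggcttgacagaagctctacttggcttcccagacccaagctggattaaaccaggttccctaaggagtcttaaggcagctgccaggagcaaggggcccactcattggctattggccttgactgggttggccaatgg
Lep: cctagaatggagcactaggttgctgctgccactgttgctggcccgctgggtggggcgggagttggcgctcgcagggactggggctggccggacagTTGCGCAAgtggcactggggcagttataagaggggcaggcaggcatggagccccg
Pck1: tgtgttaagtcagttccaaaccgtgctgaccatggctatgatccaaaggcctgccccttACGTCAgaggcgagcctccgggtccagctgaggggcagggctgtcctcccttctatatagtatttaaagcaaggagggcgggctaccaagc
Ucp1: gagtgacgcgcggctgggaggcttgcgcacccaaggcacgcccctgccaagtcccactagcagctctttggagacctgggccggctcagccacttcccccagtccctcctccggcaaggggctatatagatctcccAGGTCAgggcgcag
The capitals are a C/EBP motif (TTNNGCAA) 55 bases before the start of Lep, a cyclic AMP response element (TGACGT, read on the minus strand) 91 bases before the start of Pck1, and the nuclear receptor motif AGGTCA 14 bases before the start of Ucp1. Both strands of 300 bases around each start were searched, and the C/EBP match in Lep reads the same on both. TTNNGCAA was held by 10.8% of 32851 mouse promoters of that length, AGGTCA by 16.3% and TGACGT by 7.51%. Among the 8 listed genes with a promoter in the RefSeq table, 2 held the first motif and 1 held each of the others, with TATAAA in 1 against 13.6% of all promoters. These matches are letters in a window and were not tested for binding.

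The most visible feature of the brown fat members was their rise on 3 of the 48 arrays, RW-SS-6, DIO-SC-7 and DIO-SC-3. Ucp1, the uncoupling protein that defines brown fat, read 12.97, 13.18 and 11.09 there and between 4.33 and 5.42 on the other 45. Cidea, a lipid droplet protein of brown fat, read 12.05, 12.50 and 10.34 against 5.65 to 7.05. Elovl3, an elongase of very long chain fatty acids induced in cold-exposed brown fat, read 10.31, 7.75 and 6.03 against 4.04 to 4.60. All 4 brown fat members lay above the other 45 arrays on each of the 3 arrays. Since these arrays were chosen with earlier results of these data known, this describes them and is not a test. How many of all probe sets did the same was not counted. Cox8b, a cytochrome c oxidase subunit of brown fat, heart and skeletal muscle, read 12.55, 13.16 and 11.35 against 6.38 to 9.62. The 3 arrays were not alike, since Ucp1 was highest on DIO-SC-7 and Elovl3 was highest on RW-SS-6.

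On the same arrays the rise of the white fat members was less even. Adipoq, which encodes adiponectin, read 13.06 on RW-SS-6, 12.77 on DIO-SC-7 and 9.90 on DIO-SC-3, against 6.16 to 9.81 on the other 45. Pck1, the cytosolic enzyme that feeds gluconeogenesis and glycerol synthesis, read 11.47, 11.40 and 8.59 on Pck1-a against 3.58 to 6.92. Retn, the gene of resistin, read 11.11 and 9.57 on the first 2 of these arrays but 7.55 on DIO-SC-3, inside its range of 6.43 to 9.01. Lep, the gene of leptin, read 4.50 on RW-SS-6, inside its range of 3.74 to 4.70 on the other 45, and 4.71 and 4.82 on DIO-SC-7 and DIO-SC-3, just above it. The second probe set, Pck1-b, stayed between 2.86 and 3.49 on all arrays and was low on RW-SS-6 (2.92) and DIO-SC-7 (2.89), so the Pck1 pair disagreed. Over the 9 probe sets 7, 8 and 7 lay above the other 45 arrays on RW-SS-6, DIO-SC-7 and DIO-SC-3. The 3 arrays were chosen with earlier results of these data known. The share of all probe sets above the other 45 arrays was not taken.

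**Figure D1:**
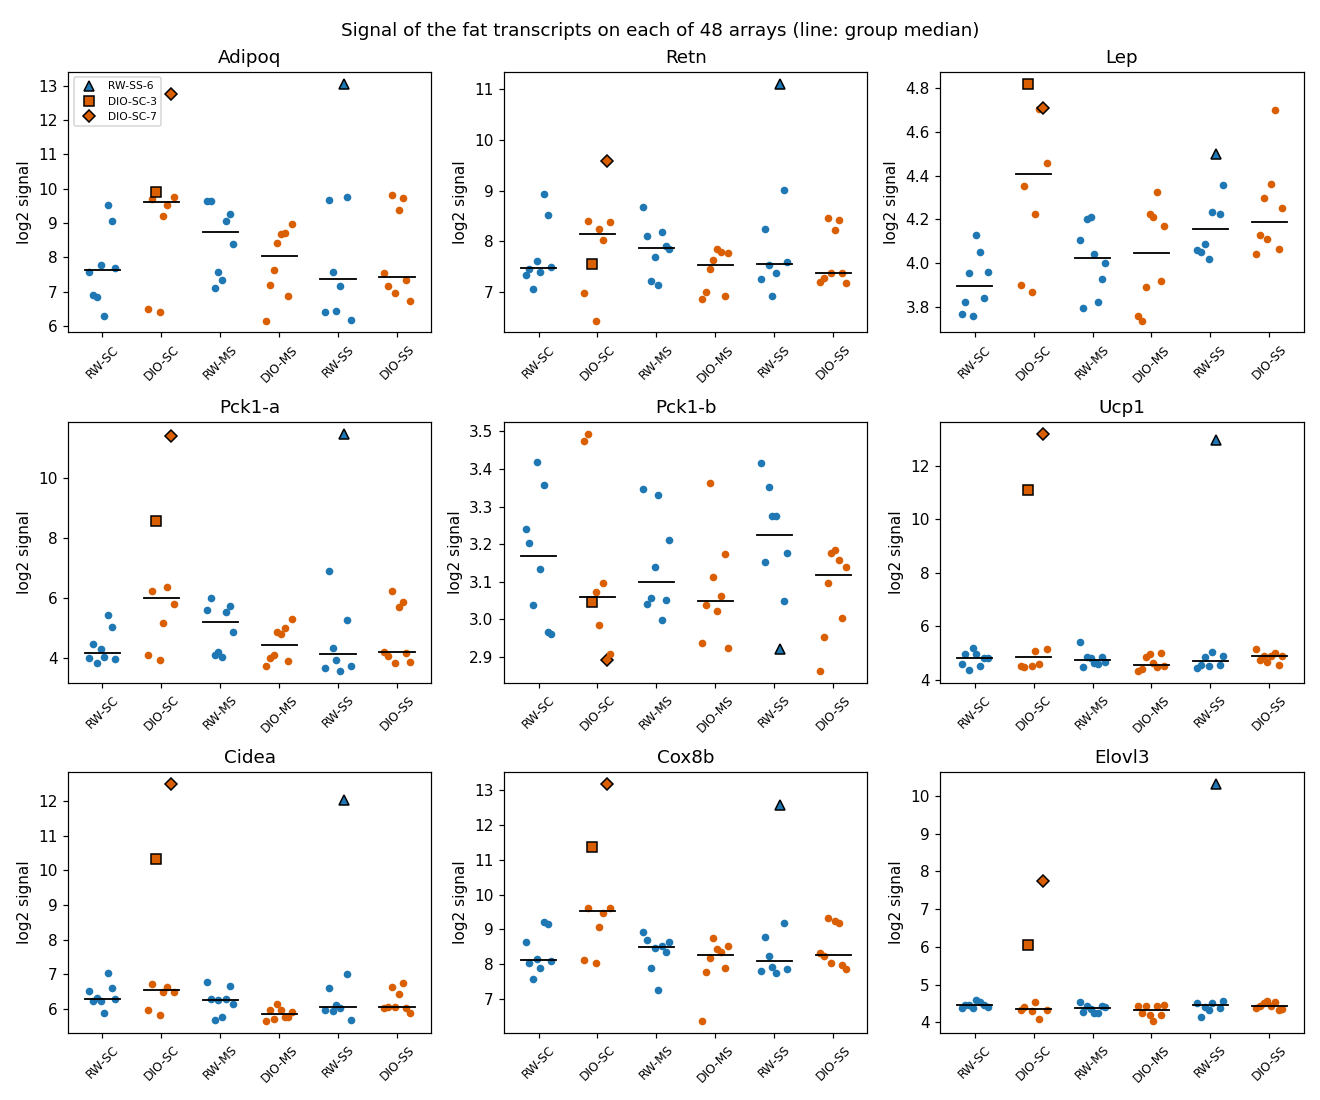
Log2 signal (vertical axis, own scale per panel) of each probe set on every array, by group; lines are group medians, and the 3 marked arrays are RW-SS-6, DIO-SC-3 and DIO-SC-7. Ucp1, Cidea and Elovl3 stay within narrow bands except on the marked arrays, while Adipoq and Cox8b vary widely in all groups.

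Other genes listed for fat went with the members on these arrays, though several are also expressed by other cells. Fabp4, Cd36 and Lpl are expressed in endothelium, and Scd1, Fasn, Acly, Acaca and Cebpa in alveolar type 2 cells. Cidec, Lpl and Fabp4 are also expressed in alveolar macrophages, and Cox7a1 and Fabp3 in heart and skeletal muscle. Of 31 other adipocyte genes, 24 lay above all of the other 45 arrays on RW-SS-6, 21 on DIO-SC-7 and 9 on DIO-SC-3. Of 19 other brown fat genes 15, 17 and 11 did. The share of all probe sets doing so was not taken. Of 20380 probe sets with 1 symbol, 117, 310 and 239 lay over 2 log2 above the median of the rest of the group. The 3 arrays differed in their other leading genes, and whether they carried other tissues was not tested. On RW-SS-6 the non-member genes highest above the rest of the group were the atrial peptide Nppa (5.91 log2), the fatty acid carrier Fabp4 (5.72), Tmem45b (5.55) and the lipogenic regulator Thrsp (5.34). On DIO-SC-7 they were genes of thymus and lymphocytes, with the recombinase Rag1 at 9.10, the thymus gene Tbata at 7.37, the immunoglobulin heavy chain Ighm at 7.24 and the polymerase Dntt at 6.84. DIO-SC-3 missed the limit of 2 log2 set on the mean of the members for naming further genes (1.80, against 4.58 and 3.49), and its leading genes were chosen after their values were seen. They were keratin Krt13 (10.45), the cornified envelope gene Lor (9.63) and the fast muscle troponin Tnnc2 (9.28).

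Marker lists gave the same account in means over genes, as log2 deviations from the median of the other 45 arrays. The 8 thymocyte genes stood at 4.98 on DIO-SC-7, against -0.16 to 0.28 on the 45. The 12 skeletal muscle genes and 9 squamous epithelium genes stood at 5.36 and 5.22 on DIO-SC-3, against at most 0.67 and 0.46. The 14 cardiac muscle genes stood at 1.79 on RW-SS-6, above the 1.35 reached elsewhere, and at 1.26 and -0.16 on DIO-SC-7 and DIO-SC-3. Lung markers stood at -0.10, -0.55 and -0.22 on RW-SS-6, DIO-SC-7 and DIO-SC-3, against -0.15 to 0.12 on the 45, so RW-SS-6 lay inside that range. Of 7 lung markers 0, 6 and 2 lay below all of the other 45 arrays on these arrays. No share over all probe sets was taken for those counts. Zic1, a transcription factor of brown fat at the back, read 4.77 on DIO-SC-3 against at most 3.39 on the 45 and 2.92 and 3.08 on RW-SS-6 and DIO-SC-7. Ppara, a receptor that drives fat oxidation, read 9.63 on DIO-SC-7, 7.24 on DIO-SC-3 and 7.02 on RW-SS-6, against at most 7.06 on the 45. Both were chosen after their values were seen.

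**Figure D2:**
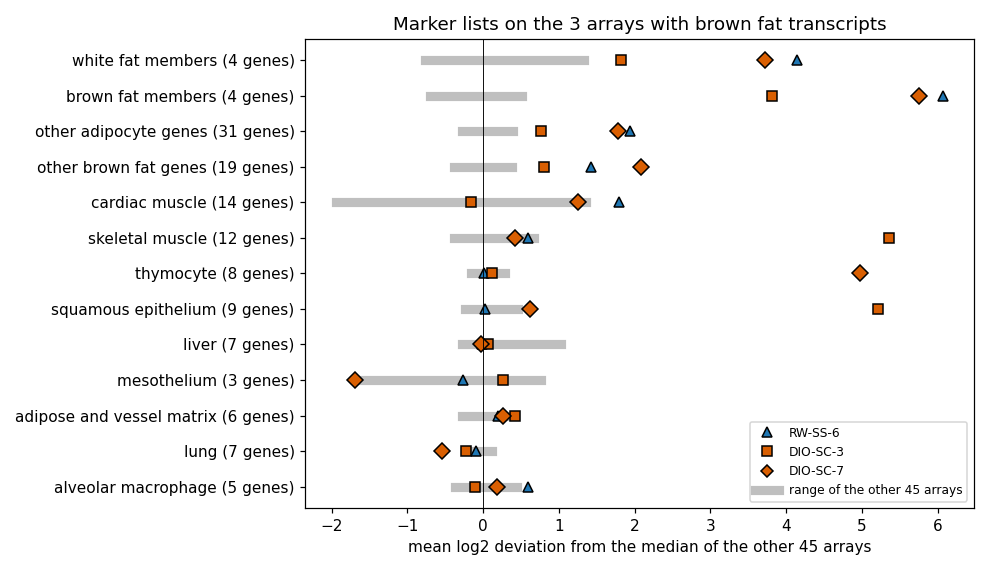
Mean log2 deviation from the median of the other 45 arrays (horizontal axis) for each marker list on RW-SS-6, DIO-SC-3 and DIO-SC-7, with grey bars for the range of the other 45. White fat, brown fat, other adipocyte and other brown fat lists lie above the bars on all 3 arrays. The adipose and vessel matrix list lies inside its bar on RW-SS-6. Thymocyte genes reach 4.98 on DIO-SC-7, and skeletal muscle and squamous genes reach 5.36 and 5.22 on DIO-SC-3.

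Adipoq varied widely between animals of every group. Adipoq ran from 6.30 through a median of 7.64 to 9.51 in RW-SC, and from 6.41 through 9.61 to 12.77 in DIO-SC. In mainstream smoke it ran from 7.11 through 8.72 to 9.64 in RW animals and from 6.16 through 8.02 to 8.96 in DIO animals. In sidestream smoke it ran from 6.18 through 7.36 to 13.06 and from 6.73 through 7.44 to 9.81. Without RW-SS-6, DIO-SC-3 and DIO-SC-7 the highest values were 9.75 in both DIO-SC and RW-SS. All 6 groups overlapped, with or without those arrays. Over the 45 arrays Adipoq fell on both sides of a gap, with 25 arrays at or below 7.77 and 20 at or above 8.39. Above the gap lay 2 of 8 RW-SC, 4 of 6 DIO-SC, 5 of 8 RW-MS, 4 of 8 DIO-MS, 2 of 7 RW-SS and 3 of 8 DIO-SS arrays.

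Retn, Pck1-a, Cidea and Cox8b moved with Adipoq from animal to animal in both diets. Their slopes per log2 of Adipoq, over the 45 arrays with group means removed, were 0.45 ± 0.04, 0.64 ± 0.06, 0.28 ± 0.03 and 0.39 ± 0.05 in RW animals. In DIO animals the slopes were 0.45 ± 0.04, 0.66 ± 0.06, 0.20 ± 0.03 and 0.50 ± 0.05. The limma fit called all 4 in both diets, with adjusted p from 1.0e-10 to 1.2e-07 in RW and from 2.7e-11 to 4.9e-06 in DIO animals, while 1.44% and 1.72% of all probe sets were called. Ucp1, Elovl3 and Pck1-b had slopes between -0.03 and 0.06 in the 2 diets and were not called, with limma adjusted p of at least 0.77. On the 45 arrays they read at most 5.42, 4.60 and 3.49, near the low end of the scale. These slopes were an addition made after the data were seen.

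Because Adipoq fell on both sides of a gap, correlations were taken on each side. Unlike the slopes, they used signals pooled over exposures, without removing group means. Above the gap, r with Adipoq was 0.93 for Retn, 0.91 for Pck1-a, 0.87 for Cox8b and 0.86 for Cidea over 11 DIO arrays. It was 0.58, 0.59, 0.36 and 0.65 over 9 RW arrays. Below the gap, r was 0.73, 0.71, 0.62 and 0.38 over 11 DIO arrays and 0.38, 0.47, 0.44 and 0.46 over 14 RW arrays. These values had the same sign on both sides, and all arrays share the normalization. Differences between exposure groups enter them. Above the gap, Adipoq was at most 8.96 on DIO-MS arrays and at least 9.19 on the other DIO arrays. Cidea was at most 6.13 and at least 6.44 on the same arrays.

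The genes most like Adipoq over the 48 arrays, each value taken as a deviation from its group median, were mostly of fat and of heart. Both Car3 probe sets, for a carbonic anhydrase abundant in adipocytes, had Spearman's rho of 0.99 and 0.98, and those of Fabp4 had 0.96 and 0.95. Casq2, the cardiac calsequestrin, had 0.93, Tmem45b and Thrsp 0.91, and Smpx, a small protein of striated muscle, 0.91. The mean level of the 14 cardiac genes had rho of 0.92 with Adipoq over the 45 arrays, against 0.96 for 31 other adipocyte genes and -0.01 for 7 lung genes. For these list means the arrays were pooled without removing group medians, so differences between groups enter the rho. The atrial light chain Myl7 ran from 8.85 to 12.94 on the 45 arrays, while the ventricular light chain Myl2 ran from 3.70 to 4.43. The part of cardiac tissue in the members' values was not tested. For Ucp1 the highest rho was 0.58, with Brwd1, followed by 2010003K11Rik (0.55), Tia1 (0.55), Serpinb5, Kcnc1, Sun2, Tnrc6c and Lce1h (0.53 to 0.54), and none of these is a fat gene. On 45 of the arrays Ucp1 read 4.33 to 5.42, near the low end of the scale, so its ranking rests mostly on low signals.

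Diet was compared first in animals breathing air, and leptin was the member that differed. Lep ran from 3.76 through a median of 3.90 to 4.13 in RW-SC and from 3.87 through 4.41 to 4.82 in DIO-SC. On 6 of 8 DIO-SC arrays it lay above all RW-SC arrays. The means were 3.91 ± 0.14 and 4.38 ± 0.37 (SD, n = 8), and Lep was 1.38-fold higher in obese animals (0.47 ± 0.11, limma adjusted p = 0.0058). It was the 1 member called of 9, where 6.18% of all probe sets were called and 1.88% were higher. Mean signals of 7.95% of probe sets lay below that of Lep, so it was measured near the low end of the scale. Without RW-SS-6, DIO-SC-3 and DIO-SC-7 the difference was 0.34 ± 0.11 with limma adjusted p = 0.053 (4.91% of probe sets called). Without DIO-MS-1 and DIO-MS-6 as well, which were also taken to stand apart, it was again 0.34 with limma adjusted p = 0.036. What sets those arrays apart was not tested here. That fit called 1580 of 22626 probe sets.

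Of the other 8 probe sets, 7 had higher means in obese animals breathing air without being called, and these differences were smaller or turned without the 3 arrays. The exception was Pck1-b, at -0.04 ± 0.08. Pck1-a ran from 3.85 through 4.18 to 5.44 in RW-SC and from 3.93 through 6.02 to 11.40 in DIO-SC. Its difference was 2.06 ± 0.78 (limma adjusted p = 0.11), and 0.88 ± 0.46 without the 3 arrays. Cox8b differed by 1.46 ± 0.52 (limma adjusted p = 0.084) and by 0.64 ± 0.32 without them. Adipoq differed by 1.51 ± 0.76 (limma adjusted p = 0.25) and by 0.81 ± 0.65 without them. The brown fat members Ucp1 and Cidea differed by 1.80 ± 0.90 and 1.24 ± 0.64, and by -0.05 ± 0.13 and -0.03 ± 0.18 without the 3 arrays. Elovl3 turned likewise, from 0.51 ± 0.48 to -0.13 ± 0.07, and Retn went from 0.23 ± 0.39 to 0.02 ± 0.32. Without the 3 arrays, DIO-SC held 6 arrays.

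**Figure D3:**
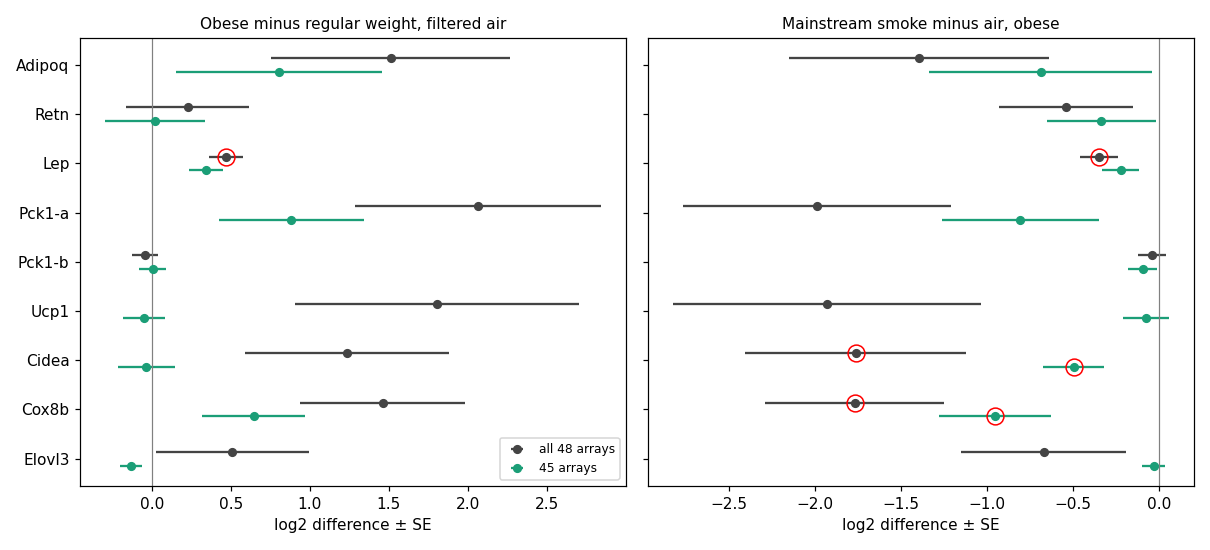
Log2 difference ± standard error (horizontal axis) for each probe set, obese minus regular weight in filtered air on the left and mainstream smoke minus air in obese animals on the right. Grey points use all 48 arrays and green points 45, and red rings mark calls at an adjusted p below 0.05; the air differences of Ucp1 and Cidea go from 1.80 and 1.24 to near 0.

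Averaged over the 3 exposures no member was called for diet, where 8.71% of all probe sets were with 48 arrays and 10.9% with 45. Limma gave 1 of the 9 an unadjusted p below 0.05, namely Lep at 0.18 ± 0.06 (adjusted p = 0.068). In mainstream smoke Lep differed between diets by 0.02 ± 0.11 and in sidestream smoke by 0.05 ± 0.11, with medians of 4.02 in RW-MS, 4.04 in DIO-MS, 4.16 in RW-SS and 4.19 in DIO-SS. Neither smoke had a member called for diet, nor one with an unadjusted p below 0.05 (limma), where 1.07% and 0.937% of probe sets were called. The diet effect on Lep was 0.45 ± 0.16 lower in mainstream smoke and 0.42 ± 0.16 lower in sidestream smoke than in air, and neither difference was called (limma adjusted p = 0.17 and 0.29). For these 2 differences between diets in the smoke response, 0 of 9 members were called, with unadjusted p below 0.05 in 4 and 5, and 0.65% and 0.535% of all probe sets were called.

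Mainstream smoke in obese animals had 3 members called, all lower, where 18.2% of all probe sets were called and 8.24% were lower. Cox8b ran from 8.04 through 9.54 to 13.16 in DIO-SC and from 6.38 through 8.27 to 8.76 in DIO-MS, and 3 of 8 DIO-MS arrays lay below all DIO-SC arrays. It fell by 1.77 ± 0.52 (limma adjusted p = 0.012). Cidea ran from 5.83 through 6.55 to 12.50 and from 5.65 through 5.83 to 6.13, with 4 of 8 DIO-MS arrays below all DIO-SC arrays. It fell by 1.77 ± 0.64 (limma adjusted p = 0.049). Lep ran from 3.74 through 4.04 to 4.33 in DIO-MS, against the DIO-SC values above, and fell by 0.35 ± 0.11 (limma adjusted p = 0.020).

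The sizes of these changes rested in part on DIO-SC-7 and DIO-SC-3, which belong to the air group. Without RW-SS-6, DIO-SC-3 and DIO-SC-7, Cidea was 0.50 ± 0.18 and Cox8b 0.95 ± 0.32 lower in mainstream smoke, both still called (limma adjusted p = 0.039 and 0.027, with 23.1% of probe sets called), and Lep differed by -0.22 ± 0.11 (limma adjusted p = 0.14). Without DIO-MS-1 and DIO-MS-6 as well, none of the 3 was called, where 3365 of 22626 probe sets were. Limma's adjusted p were then 0.13 for Cidea, 0.12 for Cox8b and 0.19 for Lep. DIO-MS-1 held the lowest Cox8b value and a cardiac list mean of -1.95. Leaving out single arrays, Cidea was called in 8 of 48 fits and Lep in 44, the others being those without DIO-SC-3, DIO-SC-6, DIO-MS-1 or DIO-MS-2 (limma adjusted p up to 0.059). The cardiac list means had a median of 1.06 in DIO-SC and 0.14 in DIO-MS, and the part of cardiac tissue in the Cox8b difference was not tested. The other 6 probe sets were not called, and Pck1-a and Ucp1 differed by -1.99 ± 0.78 and -1.93 ± 0.90 (limma adjusted p = 0.069 and 0.13). Among other adipocyte genes 3 of 31 rose and 10 fell, with a median of -0.34. Among other brown fat genes 0 of 19 rose and 10 fell, with a median of -0.54. Over all 22626 probe sets 2243 rose and 1865 fell, with a median of -0.02. Without the 3 arrays 4 of the adipocyte genes rose and 7 fell, and 0 of the brown fat genes rose and 5 fell. Of all 22626 probe sets 2395 then rose and 2836 fell. Both lists include genes also expressed by lung or muscle cells.

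In the remaining smoke comparisons no member was called. Mainstream smoke in RW animals called 0 of 9 members, with 0 at an unadjusted p below 0.05 (limma), against 14.2% of probe sets. Adipoq differed there by 0.79 ± 0.76 and Ucp1 by 0.02 ± 0.90. Sidestream smoke called 0 of 9 in RW animals, with 1 at an unadjusted p below 0.05 (limma), against 2.3% of probe sets. That member was Lep, at 0.28 ± 0.11 (adjusted p = 0.16), for which 4 of 8 RW-SS arrays lay above all RW-SC arrays. In DIO animals sidestream smoke called 0 of 9, with 3 at an unadjusted p below 0.05 (limma), against 5.29% of probe sets, and these were Cox8b (-1.28 ± 0.52), Pck1-a (-1.70 ± 0.78) and Cidea (-1.38 ± 0.64).

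Members were also compared with Adipoq of each array as a covariate, an analysis added after the data were seen. Adipoq is 1 transcript, which also followed the cardiac list (rho 0.92 over pooled arrays, group differences included), and the amount of fat was not measured. The fit gave each probe set 1 slope on Adipoq for both diets. It does not allow for the different slopes of Lep by diet given below. Retn was then lower in obese animals over the 3 exposures, by 0.32 ± 0.08 with all arrays and 0.23 ± 0.07 with 45 (limma adjusted p = 0.0058 and 0.016), where 9.24% and 11% of probe sets were called. Without the covariate Retn had differed by -0.22 ± 0.23. Lep in air was 0.35 ± 0.10 higher in obese animals with all arrays and 0.29 ± 0.10 higher with 45, called in the first fit but not in the second (limma adjusted p = 0.032 and 0.10), where 3.44% of probe sets were called in the first. In mainstream smoke Cox8b in obese animals was 0.90 ± 0.23 lower with all arrays and 0.65 ± 0.15 lower with 45 (limma adjusted p = 0.0045 and 9.4e-04), where 17.5% and 22.6% of probe sets were called. Cidea in mainstream smoke was lower on 45 arrays in both diets, by 0.35 ± 0.09 in RW and 0.33 ± 0.09 in DIO animals (limma adjusted p = 0.0035 and 0.0071), where 19.4% of probe sets were called in RW animals. With all 48 arrays its obese difference was -0.87 ± 0.44 and was not called (limma adjusted p = 0.18).

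Leptin was the member whose relation to Adipoq differed between the diets. Over 45 arrays its slope per log2 of Adipoq was -0.03 ± 0.03 in RW animals (limma adjusted p = 0.87) and 0.16 ± 0.02 in DIO animals (limma adjusted p = 8.2e-06). The difference of 0.20 ± 0.04 was the only one called among 22625 probe sets (0.00442%, limma adjusted p = 0.042), and for Retn and Pck1-a it was -0.0022 ± 0.057 and 0.02 ± 0.08. The call was close to the limit. It was lost with all 48 arrays (0.14, limma adjusted p = 0.36), without the 5 arrays named above (0.19, limma adjusted p = 0.11) and with arrays centred on their medians (0.20, limma adjusted p = 0.085). Leaving out 1 of the 45 arrays at a time, the difference stayed between 0.18 and 0.21 and was called in 13 of 45 fits. On each side of the Adipoq gap, r between Lep and Adipoq was 0.27 below and 0.59 above in DIO animals, and -0.42 below and 0.36 above in RW animals. Group means were not removed for these r.

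**Figure D4:**
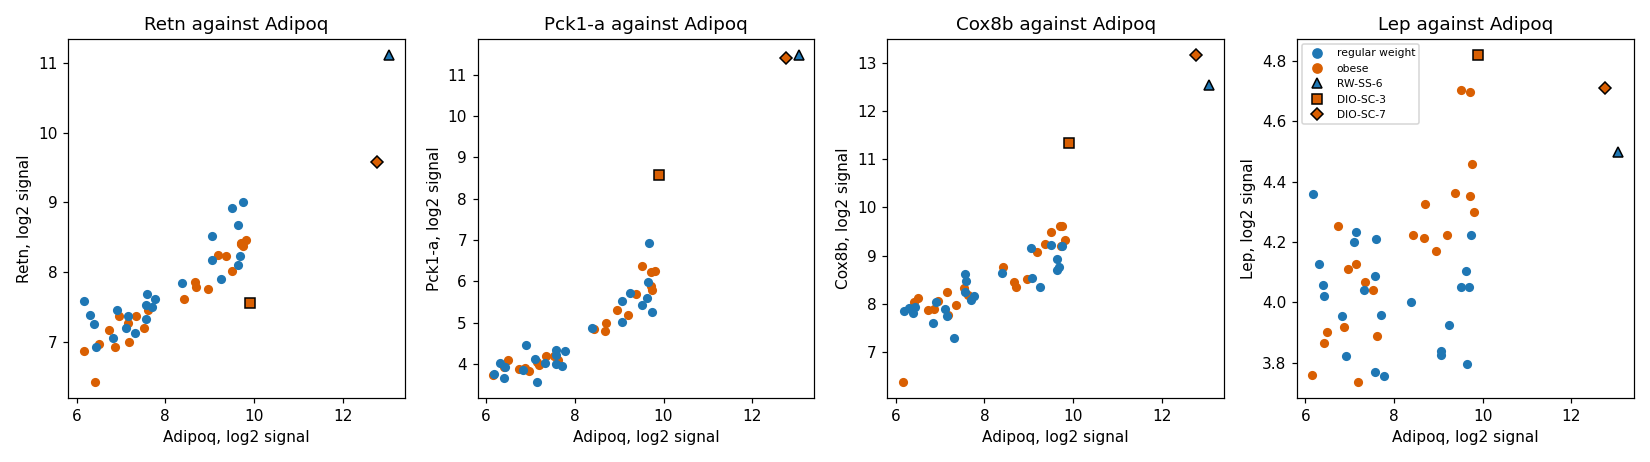
Retn, Pck1-a, Cox8b and Lep (vertical axes, log2 signal) against Adipoq (horizontal axis, log2 signal), 1 point per array, blue for regular weight and orange for obese, with RW-SS-6, DIO-SC-3 and DIO-SC-7 marked. The first 3 genes rise with Adipoq in both diets, and Lep has a slope of 0.16 in obese and -0.03 in regular weight animals over the 45 unmarked arrays.

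Genes related to the members were compared for diet over the 3 exposures, where 8.71% of all probe sets were called with 48 arrays and 10.9% with 45. Of 31 other adipocyte genes, 3 were higher in obese animals and 0 lower, with a median of 0.03 against -0.01 over all probe sets. They were Nnat, an imprinted proteolipid gene of adipose tissue and brain (0.60 ± 0.11, limma adjusted p = 1.4e-04), the lipase inhibitor Angptl4 (0.53 ± 0.13, limma adjusted p = 0.0054) and the imprinted gene Mest, which goes with adipocyte expansion (0.25 ± 0.06, limma adjusted p = 0.0041). Without the 3 arrays 6 were higher and 2 lower, and the 3 of largest difference were Nnat (0.70 ± 0.08), Angptl4 (0.53 ± 0.13) and Aoc3, an amine oxidase of adipocytes and smooth muscle (0.44 ± 0.10). Cidec, the relative of Cidea in white fat, differed by -0.24 ± 0.21, and Plin4, a perilipin, by 0.33 ± 0.20, neither called. In air, with all 48 arrays, Plin4 was 1.19 ± 0.34 higher in obese animals (limma adjusted p = 0.024), and Cidec differed by 0.67 ± 0.36. Plin4 lay above all of the other 45 arrays on both DIO-SC-3 and DIO-SC-7, so its difference in air rests in part on them. Cidec did so on DIO-SC-7 but not on DIO-SC-3. The sizes of these air differences without the 3 arrays are not given here.

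Other brown fat genes had 0 of 19 called for diet over the 3 exposures, and 2 higher without the 3 arrays, against 8.71% and 10.9% of all probe sets. These were Dio2, the deiodinase that activates thyroid hormone (0.48 ± 0.09, limma adjusted p = 1.3e-04), and Slc25a20, the carnitine carrier (0.11 ± 0.04, limma adjusted p = 0.039). Among 6 genes of adipose and vessel matrix, Pi16, a marker of fibroblasts around vessels and of adipocyte precursors, was higher (0.35 ± 0.08, limma adjusted p = 0.0028). Of 5 alveolar macrophage genes, keratin Krt79 was lower (-0.44 ± 0.06, limma adjusted p = 2.4e-06). The lists of cardiac muscle, skeletal muscle, thymocyte, squamous epithelium, liver, mesothelium and lung genes had none called for diet with all arrays. Without the 3 arrays, Acta1 of skeletal muscle (0.38 ± 0.11), Sprr1a of squamous epithelium (0.26 ± 0.07) and Wt1 of mesothelium (0.26 ± 0.08) were called higher.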

How the data were processed

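Log2 signals of 48 arrays were used as the authors deposited them. They were made with RMA, per the submitters' processing notes; the sources used here name neither its version nor the set of arrays it was run on. Array depth does not apply, and the number of animals (8 per group) limits the precision. Sample groups came from the titles. Sources of 4 RW arrays repeat an animal number, and each was counted as its own animal, by title. No value column was left without a sample.

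After removal of 64 control probe sets, 22626 of 22690 were tested. The platform annotation gave 1 symbol to 20380, several to 691 and none to 1555. limma 3.58.1 under R 4.3.3 fitted group means to the 48 arrays (eBayes with neither trend nor robust setting), with Benjamini-Hochberg adjustment over all probe sets within each of 10 contrasts, two-sided. Lists used the probe set of highest mean for each gene. For slopes, Adipoq was added to the fit separately for each diet, over 22625 probe sets. Fits were tested on simulated data. Alternatives were leaving out arrays, array quality weights, trended and robust moderation, centring, 1 probe set per gene, the brighter probe sets, the animal number as a block and Adipoq as a covariate.

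Members and lists were chosen with earlier results of these data known, and so were RW-SS-6, DIO-SC-3 and DIO-SC-7. Named genes are the members, from each list the 3 of largest difference among those called for diet with partners of members, the 8 most like Adipoq and Ucp1, and leading genes of arrays whose members averaged over 2 log2 above the group median. Cfd and Plin1 were not analysed here.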

Additional observations from a re-analysis of the deposited data

Results flagged for a closer look

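In each group of 8, the highest and lowest array of each probe set was compared with its nearest neighbour, over 54 combinations of probe set and group. In 7 of them the gap was a larger part of the group's range than chance gives in about 1 of 20 groups. Within RW-SS, array RW-SS-6 was the far value of 5 members, with Ucp1 at 12.97, Cidea at 12.05, Cox8b at 12.55, Elovl3 at 10.31 and Pck1-a at 11.47. Their gaps to the next array were 7.92, 5.05, 3.36, 5.75 and 4.55 log2. Within RW-MS, Ucp1 on RW-MS-1 stood at 5.42, which is 0.55 above the next array. Within DIO-MS, Cox8b on DIO-MS-1 stood at 6.38, which is 1.39 below the next array. DIO-SC-7 and DIO-SC-3, both high in DIO-SC, were not among the 7. The gap runs to the nearest array, so each of these arrays can hide the other. For Ucp1, at 13.18 and 11.09, the gap from DIO-SC-7 ended at DIO-SC-3. Their absence from the 7 therefore does not make them less extreme than RW-SS-6.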

How the results depend on the processing

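Of 800 member differences recomputed under alternatives other than single arrays left out, 779 kept their side of the threshold, 102 of these with a change of sign and a call in neither fit, 13 lost their call, 6 gained one and 2 reversed. With the Adipoq covariate, Retn in air reversed to -0.51 with all arrays. Cidea over the 3 exposures reversed from 0.06 to -0.17 with the covariate on 45 arrays, and was -0.12 on 45 arrays and -0.08 with the covariate alone, called in neither. For diet over the 3 exposures 1 member was called with array quality weights (Lep), 1 with the covariate and 2 with the covariate on 45 arrays. Of all 22626 probe sets those fits called 3234, 2090 and 2488, against 1970 in the main fit. In air the count was 0 without RW-SS-6, DIO-SC-3 and DIO-SC-7, 0 over the brighter probe sets, where 2 members remain, 2 with the covariate and 0 with it on 45 arrays. In that order 1110 of 22626, 1270 of 11313, 778 of 22626 and 965 of 22626 probe sets were called, against 1399 in the main fit. For mainstream smoke in obese animals it was 0 without the 5 arrays, 0 with array quality weights, 1 over the brighter probe sets and 1 with the covariate. Those fits called 3365 of 22626, 3761 of 22626, 3099 of 11313 and 3968 of 22626 probe sets, against 4108 in the main fit. For mainstream smoke in RW animals it was 1 with the covariate on 45 arrays, where 4383 of 22626 probe sets were called, against 3209. The cause was not tested, beyond the smaller number of probe sets or arrays. Leaving out 1 array at a time gave 0 to 1 members for diet over the 3 exposures, 1 to 3 in air, 1 to 5 for mainstream smoke in obese animals and 0 in every other contrast. The number of all probe sets called was not kept for these fits. Lep in air was called in 48 of 48 such fits and Cox8b in mainstream smoke in 48 of 48, while Lep in mainstream smoke was called in 44 and Cidea in 8. Without RW-SS-6 the count was 5 for mainstream smoke in obese animals, with Pck1-a and Ucp1 added, and 3 in air, with Pck1-a and Cox8b added. The Lep slope difference was 0.14 with all arrays, 0.19 without the 5 arrays and 0.20 with centring, not called in any, and 0.18 to 0.21 with single arrays left out. With the animal number as a block, 1 member was called for diet over the 3 exposures (Lep, limma adjusted p = 0.035, with 1917 of all probe sets called). For mainstream smoke in obese animals 4 were called (Pck1-a added, limma adjusted p = 0.049, with 4044 of all probe sets called). The block changed no other count of members. The numbers do not pair the animals: 37 of 120 same-numbered pairs had correlations of deviations above 0.1, with a median of 0.02, and 5 of 48 arrays correlated best with their own number. Lep and Pck1-b were measured near the low end of the scale, as were Ucp1, Elovl3 and Pck1-a on most arrays. Mean signals of 18.3%, 12.4% and 16.8% of probe sets lay below those of the last 3. No detection calls were used here.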

Other observations

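After Lep, the probe sets with the largest evidence for a different slope on Adipoq between the diets were Acsm3 (-0.22 ± 0.04, limma adjusted p = 0.12) and the mast cell protease genes Cpa3 (0.24 ± 0.05, limma adjusted p = 0.48) and Mcpt4 (0.18 ± 0.04, limma adjusted p = 0.50). None was called. Nnat, higher in obese animals over the 3 exposures, had slopes of 0.02 in RW and 0.23 in DIO animals, a difference of 0.20 ± 0.05 that was not called (limma adjusted p = 0.86). Liver genes stood apart on 1 array: DIO-SC-8 had a mean of 1.02 over 7 liver genes, and the next highest of all arrays was RW-SC-6 at 0.24.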
